A study of Rattus norvegicus with 6 samples.

Results

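A set of 44 interferon-responsive genes, chosen by symbol as receptors, regulators and targets of the pathway, was followed in rat adipose-derived stem cells, the stromal precursor cells of fat tissue. For 41 of them the array carried a feature annotated to that symbol alone, out of 18166 genes measured in all. Ifnar2, Bst2 and Eif2ak2 were not analysed here. Usp18 had 2 features, of which the one with the higher mean was used, and each other gene had 1.

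Interferons are secreted signals of infection. Type I interferons act through the receptor chains Ifnar1 and Ifnar2, and interferon gamma acts through Ifngr1 and Ifngr2. Both switch on Stat and Irf transcription factors, which bind short promoter elements and raise a large set of antiviral and antigen-presenting genes. Stromal cells of fat carry these receptors and hold a low resting level of many of the target genes, and adipocytes can present antigen and respond to interferon gamma.

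Female Wistar rats aged 2 weeks gave the inguinal fat, and 6 one-colour Affymetrix arrays, 3 of induced and 3 of control cells, measured the RNA of its cultured cells. Induced cells had spent 7 days in α-MEM with 20% fetal bovine serum, 0.5 mM 3-isobutyl-1-methylxanthine (a phosphodiesterase inhibitor), 1 µM dexamethasone (a synthetic glucocorticoid) and 5 µg/ml insulin. Control cells grew in α-MEM with 10% fetal bovine serum, and the sources used here give no culture time for them, so time, serum and the inducing agents cannot be told apart. The labels call the arrays biological replicates without naming the animals, so p-values measure the spread between these cultures. Values are log2 signals after RMA, and every change is induced minus control. The level of one gene cannot be set against that of another on this scale.

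Induced replicate 3 stood apart from the other arrays over the whole set of features. It differed by over 2-fold from induced replicates 1 and 2 at 2745 and 2664 features, while those 2 arrays differed from each other at 546. Mature adipocyte markers followed the labels more clearly than stromal ones. The mean of 10 mature adipocyte markers was 10.66, 10.65 and 11.63 on induced replicates 1 to 3. On control replicates 1 to 3 it was 8.08, 6.45 and 6.56, so control replicate 1 stood above the other controls. The mean of 8 stromal markers was 11.46, 11.49 and 10.12 on the induced arrays and 11.95, 11.79 and 11.54 on the control arrays. Their median difference from control was -0.26 on induced replicates 1 and 2 and -1.55 on induced replicate 3. None of the 8 passed the limma test described below. A mean of 14 macrophage and leukocyte markers was 7.42, 7.03 and 5.70 on the induced arrays and 6.37, 6.74 and 5.37 on the control arrays, so both replicate 3 arrays were low. Endothelial markers (4 genes) averaged between 4.93 and 5.27 on every array. In such bulk RNA, fewer cells of a type and less RNA per cell cannot be told apart.

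Interferon signals reach a gene through short promoter elements, and 6 promoters are shown to display them, picked after the values were seen. Gbp2, Igtp, Ifi47, B2m and Irf1 had all induced arrays above control, and Psmb8 had the widest spread. Both motifs named here were searched on both strands of the window from 250 bases before to 50 bases after the gene start, in RefSeq sequence of build GRCr8. The letters GAAA, any 2 bases and GAAA again are the core of the interferon-stimulated response element, the site of Irf proteins, and TTCNNNGAA is the gamma-activated site of Stat dimers. Capitals mark either motif, and the letters run 5′ to 3′ in the direction of transcription. The first 3 belong to the interferon-gamma GTPases Gbp2 (chr2:234005477-234005776, plus strand), Igtp (chr10:42874797-42875096, plus strand) and Ifi47 (chr10:33798494-33798793, plus strand). The others belong to the antigen-presentation genes B2m (chr3:129549080-129549379, plus strand) and Psmb8 (chr20:4656982-4657281, minus strand) and to the regulator Irf1 (chr10:38417685-38417984, plus strand).
Gbp2: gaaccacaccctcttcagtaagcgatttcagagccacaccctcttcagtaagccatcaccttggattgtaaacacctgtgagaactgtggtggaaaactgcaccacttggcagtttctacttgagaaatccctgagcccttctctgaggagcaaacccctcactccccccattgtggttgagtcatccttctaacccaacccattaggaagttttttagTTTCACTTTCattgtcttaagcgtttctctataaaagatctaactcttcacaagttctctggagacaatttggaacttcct
Igtp: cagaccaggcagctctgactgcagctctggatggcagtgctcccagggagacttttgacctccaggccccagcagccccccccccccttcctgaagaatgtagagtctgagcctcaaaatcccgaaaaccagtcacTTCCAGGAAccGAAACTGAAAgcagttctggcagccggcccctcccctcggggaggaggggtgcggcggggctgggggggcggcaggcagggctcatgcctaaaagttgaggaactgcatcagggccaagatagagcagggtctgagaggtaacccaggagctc
Ifi47: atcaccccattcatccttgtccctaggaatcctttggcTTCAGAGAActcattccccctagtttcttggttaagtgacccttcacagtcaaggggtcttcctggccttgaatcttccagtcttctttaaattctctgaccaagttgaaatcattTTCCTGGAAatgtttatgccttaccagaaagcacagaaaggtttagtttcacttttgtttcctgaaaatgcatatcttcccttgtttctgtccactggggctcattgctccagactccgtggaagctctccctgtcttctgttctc
B2m: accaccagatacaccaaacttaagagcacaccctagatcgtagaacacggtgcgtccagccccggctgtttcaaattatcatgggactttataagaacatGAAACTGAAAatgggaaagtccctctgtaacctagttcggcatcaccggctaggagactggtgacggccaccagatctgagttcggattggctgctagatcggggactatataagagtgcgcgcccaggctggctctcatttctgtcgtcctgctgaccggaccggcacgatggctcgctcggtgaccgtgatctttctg
Psmb8: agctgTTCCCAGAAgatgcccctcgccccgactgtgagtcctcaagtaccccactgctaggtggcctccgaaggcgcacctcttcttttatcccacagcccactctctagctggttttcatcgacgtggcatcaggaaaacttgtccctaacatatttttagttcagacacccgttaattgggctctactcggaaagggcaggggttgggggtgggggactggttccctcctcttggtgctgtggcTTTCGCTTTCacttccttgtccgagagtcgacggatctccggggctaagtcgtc
Irf1: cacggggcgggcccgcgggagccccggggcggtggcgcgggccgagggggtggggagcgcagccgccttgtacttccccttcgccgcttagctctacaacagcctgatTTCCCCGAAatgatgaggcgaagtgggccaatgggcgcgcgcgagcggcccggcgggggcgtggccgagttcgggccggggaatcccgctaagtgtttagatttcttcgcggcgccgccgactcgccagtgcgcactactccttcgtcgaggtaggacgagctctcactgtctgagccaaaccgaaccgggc

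In Gbp2 the response element core began at position -31 from the start site, in B2m at -150 and in Igtp at -103. Igtp also held a gamma-activated site at -114, just before its response element. Ifi47 had no response element core by these letters but 2 gamma-activated sites, at -212 and -96, and Irf1 had 1 at -142. Psmb8 held a core at -4 and a gamma-activated site at -245. Of the 41 measured genes 33 matched a promoter window, and 18 of these (54.5%) held the core, against 3.77% of all 27457 windows. The gamma-activated site lay in 8 of the 33 windows (24.2%), against 8.68% of all windows, and 4 (Igtp, Oas1a, Parp14 and Psmb8) held both, against 0.524%. Such a match describes letters and does not show that a factor was bound.

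None of the 41 genes passed the test between induced and control cells (0 of 41 at an adjusted p under 0.05 in limma), where 0.749% of all genes passed, 0.479% higher and 0.27% lower in induced cells. The smallest adjusted p was 0.0991, for Gbp2. At an unadjusted p under 0.05 there were 10 of 41 (24.4%), against 17.6% of all genes. The estimates leaned one way: 33 of 41 were positive with a median log2 change of 0.24, while over all genes 47.6% were positive with a median of -0.01. The groups did not overlap for 13 of 41 members (31.7%), against 25.4% of all genes. All 3 induced arrays lay above all 3 control arrays for 12 members (29.3%), where 12% of all genes did so, and below them for 1 member (2.44%), where 13.4% of all genes did so. The 12 were Gbp2, Igtp, Ifi47, B2m, Irf1, Irf2, Irf3, Irf9, Isg15, Ifi35, Rsad2 and Xaf1, and the 1 was Ifit2. With each array centred on its own median, Irf1, Isg15 and Xaf1 overlapped, and Ifnar1 and Ifngr2 lay below control.

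**Figure D1:**
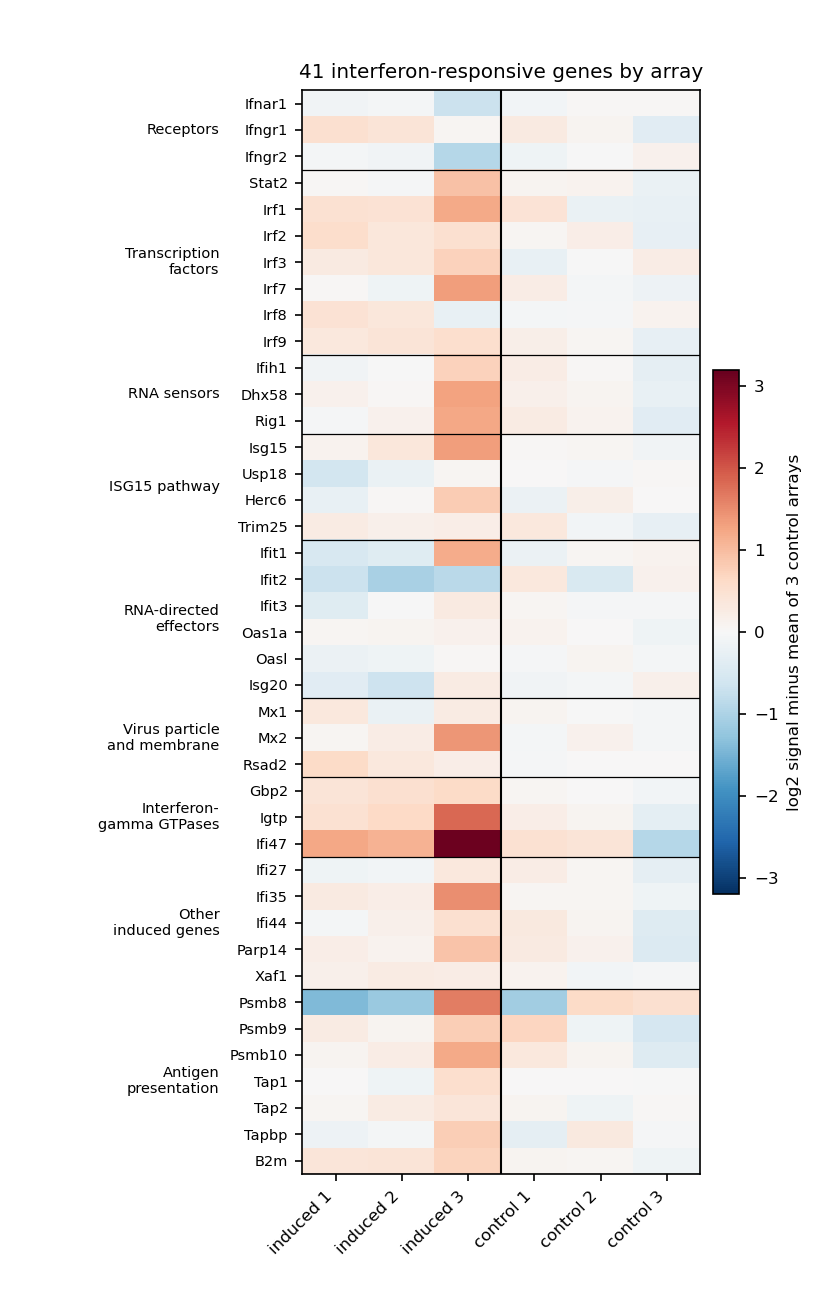
Heat map of 41 interferon-responsive genes (rows, ordered by role) on 3 induced and 3 control arrays (columns), coloured by the log2 signal minus the mean of the 3 control arrays. The column of induced replicate 3 is red for most rows, while the columns of induced replicates 1 and 2 are pale, and Psmb8 is blue on induced replicates 1 and 2 and on control replicate 1.

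Induced replicate 3 carried much of this lean. It was the highest of the 6 arrays for 30 of 41 members (73.2%), against 26% of all genes. It lay over 0.5 above the mean of induced replicates 1 and 2 for 20 members (48.8%, against 11.9% of all genes) and over 1 above it for 11 (26.8%, against 4.26%). It lay over 0.5 below that mean for 3, namely Ifnar1, Ifngr2 and Irf8, or 7.32% against 12% of all genes. The mean of the 41 genes was 7.11, 7.12 and 7.70 on induced replicates 1 to 3, and 7.12, 7.08 and 6.91 on control replicates 1 to 3. Control replicate 3 was the lowest of all arrays for 23 members (56.1%), against 17.2% of all genes. The 2 replicate 3 arrays thus marked opposite ends of the range for many members.

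With both replicate 3 arrays left out, 19 of 41 estimates were positive and their median was -0.04. In that fit of 2 against 2 arrays 1 member passed, Ifi47, higher in induced cells by 0.73 (SE 0.14, adjusted p = 0.0361). That was 2.44% of members, where 4.07% of all genes passed (2.29% higher and 1.78% lower). The 2 arrays left out were the extremes of their groups for Ifi47, whose SE was 0.62 with all arrays. Its adjusted p there only describes that fit. Leaving out induced replicate 3 alone left 26 of 41 positive with a median of 0.09, and 0 members passed where 3.07% of all genes did (2% higher and 1.07% lower). With limma's array weights, which gave induced replicate 3 a weight of 0.27 and the others 0.77 to 1.90, 1 member rose, Gbp2, by 0.47 (SE 0.10, adjusted p = 0.042), or 2.44% of members, where 5.11% of all genes passed (2.61% higher and 2.5% lower).

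**Figure D2:**
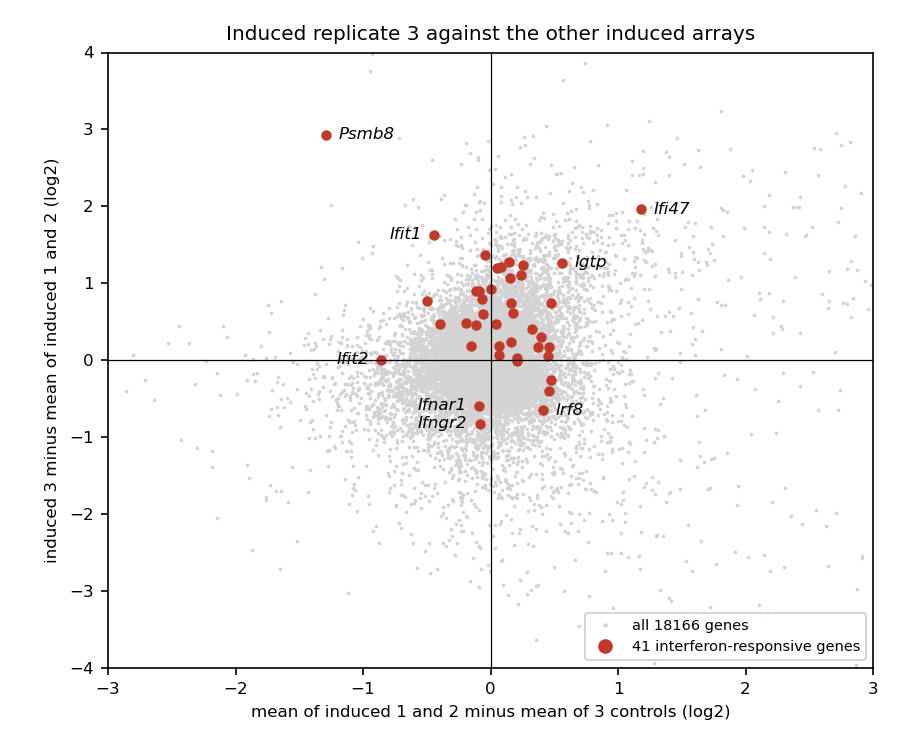
For each gene, the mean of induced replicates 1 and 2 minus the mean of 3 control arrays (x axis, log2) against induced replicate 3 minus the mean of induced replicates 1 and 2 (y axis, log2), with 41 interferon-responsive genes in red over all 18166 genes in grey, of which 54 lie outside the axes. Psmb8 at 2.93, Ifi47 at 1.96 and Ifit1 at 1.62 stand highest on the y axis among the red points, and Ifngr2 at -0.83 is the lowest of them.

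Macrophages are a source of many of these transcripts, so their markers were set beside this pattern. On induced replicate 3, 10 of 14 macrophage and leukocyte markers lay over 0.5 below the mean of induced replicates 1 and 2, and 1, Cd68, lay over 0.5 above it. Lyz2, a macrophage lysozyme, read 11.56, 10.99 and 4.44 on induced replicates 1 to 3 and 9.31, 10.19 and 4.71 on control replicates 1 to 3. Ptprc, the pan-leukocyte antigen Cd45, read 5.13, 4.63 and 4.26 on the induced arrays and 5.64, 5.35 and 4.04 on the control arrays. Among induced arrays, most macrophage and leukocyte markers were thus lowest on the array with the highest interferon-responsive mean, while Cd68 was highest there at 9.45. Among control arrays the 2 lists ran together. Control replicate 3 had the lowest mean of both, 5.37 for the markers and 6.91 for the 41 genes, and 11 of 14 markers were lowest there. Besides, on induced replicate 3, 8 of 10 mature adipocyte markers lay over 0.5 above the other induced arrays, and 6 of 8 stromal markers lay over 0.5 below. The part of the macrophage, adipocyte and stromal differences in the pattern was not tested.

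**Figure D3:**
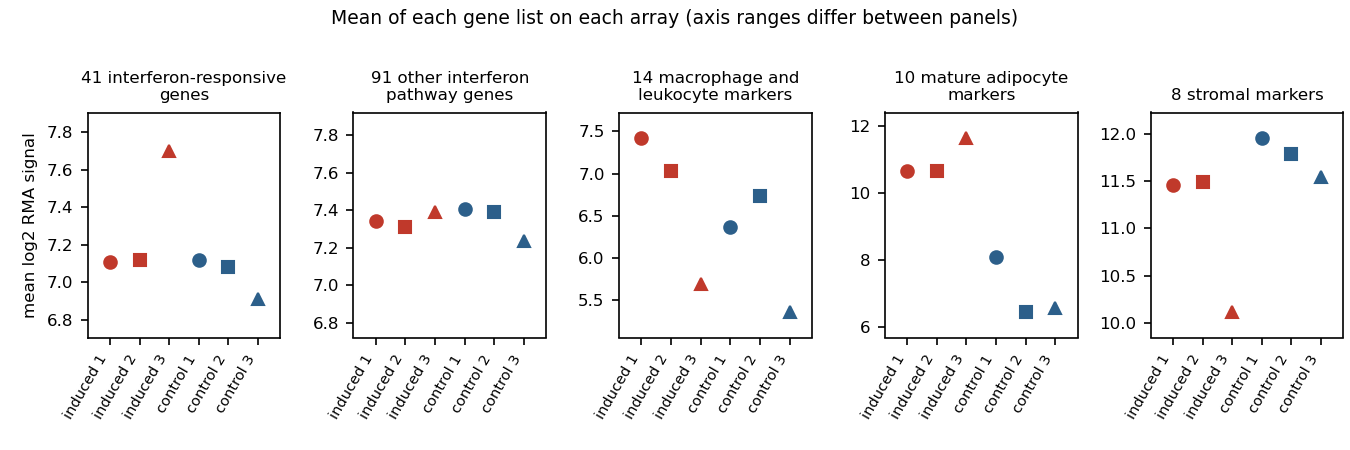
Mean log2 RMA signal of 5 gene lists on each of 3 induced (red) and 3 control (blue) arrays, 1 point per array, with a separate axis range in each panel. The mean of the 41 interferon-responsive genes is highest on induced replicate 3 at 7.70, where the adipocyte mean is also highest at 11.63 and the macrophage mean is 5.70.

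All 3 measured receptor chains had their lowest induced value on replicate 3. Ifnar1, a chain of the type I interferon receptor, read 9.36, 9.39 and 8.78 on induced replicates 1 to 3 and 9.38, 9.50 and 9.51 on control replicates 1 to 3. Ifngr2, the signalling chain of the interferon gamma receptor, read 8.55, 8.48 and 7.69 on the induced arrays and 8.47, 8.59 and 8.75 on the control arrays. Both were lowest on induced replicate 3, and their other induced arrays lay within 0.1 of a control array. Their changes were -0.29 (SE 0.18, adjusted p = 0.474) and -0.36 (SE 0.24, adjusted p = 0.499). Ifngr1, the ligand-binding chain, read 10.65, 10.55 and 10.20 in induced cells and 10.44, 10.22 and 9.77 in control cells, a change of 0.32 (SE 0.21, adjusted p = 0.482) with overlapping groups.

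All 7 listed transcription factors had positive estimates (median 0.43), where 47.6% of all genes did. For 4 of them (57.1%) every induced array lay above every control array, against 12% of all genes. Among the other pathway genes, Irf4 and Irf5 overlapped, with changes of -0.12 and -0.06. Irf1, an activator induced by interferon gamma, read 7.69, 7.66 and 8.42 on induced replicates 1 to 3 and 7.64, 6.98 and 6.96 on control replicates 1 to 3. The groups were separated by a narrow gap, since control replicate 1 read almost as high as induced replicate 2, and the change of 0.73 (SE 0.28) had an adjusted p of 0.252. Irf2, a repressor that competes with Irf1, was at 8.81 ± 0.11 in induced and 8.34 ± 0.25 in control cells (SD, n = 3 arrays each). Irf3, the resident factor that starts interferon gene transcription, was at 8.82 ± 0.24 and 8.36 ± 0.23 in induced and control cells. Irf9, the DNA-binding partner of Stat2, was at 8.70 ± 0.10 in induced and 8.27 ± 0.23 in control cells. Their changes of 0.47, 0.46 and 0.43 had adjusted p-values of 0.196, 0.254 and 0.218, and induced replicate 3 was in each case less than 0.5 from the other induced arrays. With both replicate 3 arrays left out, the changes of Irf2, Irf3 and Irf9 were 0.32, 0.44 and 0.25. Control replicate 3 was the lowest control array for Irf2 and Irf9 and the highest for Irf3.

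The other regulators varied mostly through 1 array. Irf7, the amplifier of the type I response, read 6.58, 6.40 and 7.86 on induced replicates 1 to 3 and 6.77, 6.47 and 6.36 on control replicates 1 to 3. Without induced replicate 3 its change of 0.41 (SE 0.38, adjusted p = 0.635) became -0.045. Stat2, which binds Irf9 in type I signalling, read 8.33, 8.25 and 9.22 in induced cells and 8.39, 8.40 and 8.08 in control cells (change 0.31, adjusted p = 0.608). Irf8, a factor of myeloid cells, ran the other way, at 7.03, 6.91 and 6.31 in induced cells against 6.49, 6.51 and 6.66 in control cells. It was the 1 transcription factor that was lowest on induced replicate 3 among the induced arrays with a gap above 0.5.

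The 3 cytosolic RNA sensors were each highest on induced replicate 3, and their groups overlapped. Dhx58, which encodes the regulatory helicase LGP2, read 5.46, 5.36 and 6.63 on induced replicates 1 to 3 and 5.49, 5.41 and 5.08 on control replicates 1 to 3, a change of 0.49 (SE 0.34, adjusted p = 0.516). Rig1, the gene of the sensor RIG-I, read 6.75, 6.92 and 8.03 in induced cells and 7.05, 6.90 and 6.42 in control cells. Ifih1, the gene of the sensor MDA5, read 7.06, 7.16 and 7.90 in induced cells and 7.40, 7.22 and 6.90 in control cells. With both replicate 3 arrays left out, the 3 estimates were -0.04, -0.13 and -0.21.

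**Figure D4:**
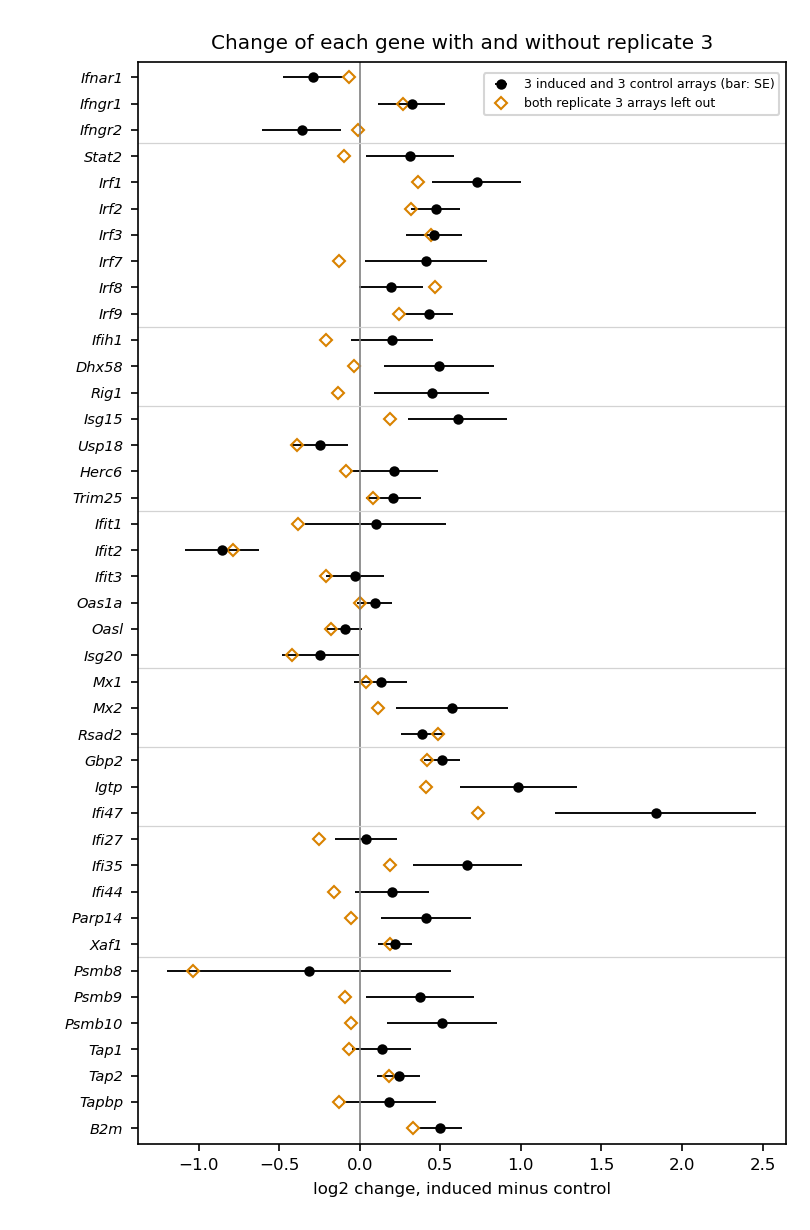
Log2 change, induced minus control, of 41 interferon-responsive genes in the same order as the heat map, from all 6 arrays (black points, bars are the SE of the fit) and with both replicate 3 arrays left out (open diamonds). Ifi47 has the largest change at 1.84 and Ifit2 the lowest at -0.86, and for the RNA sensors the diamonds lie below 0 while the black points lie above it.

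In the ISG15 pathway the modifier and the enzyme that removes it had estimates of opposite sign, neither past the test. Isg15, a ubiquitin-like protein attached to other proteins after interferon, read 4.41, 4.68 and 5.65 on induced replicates 1 to 3 and 4.35, 4.38 and 4.20 on control replicates 1 to 3 (change 0.61, SE 0.31, adjusted p = 0.372). The groups were separate, but the lowest induced array was within 0.1 of the highest control array. Usp18, the protease that strips ISG15 and damps receptor signalling, read 5.77, 6.15 and 6.43 in induced cells and 6.38, 6.31 and 6.39 in control cells, a change of -0.245 (SE 0.18, adjusted p = 0.529). Its control arrays spanned 0.07 and its induced arrays 0.65. Herc6, an ISG15 ligase in mice, was at 4.28 ± 0.54 in induced and 4.07 ± 0.18 in control cells, and Trim25, a ubiquitin ligase that acts on RIG-I, at 9.77 ± 0.05 and 9.56 ± 0.31 (SD, n = 3).

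Among the genes that act on RNA, the related genes Ifit2 and Ifit1 differed in how the arrays lay. Ifit2, whose product binds viral RNA, read 8.95, 8.59 and 8.78 on induced replicates 1 to 3 and 9.97, 9.15 and 9.78 on control replicates 1 to 3. Every induced array lay below every control array, and induced replicate 3 lay between the other induced arrays. The change of -0.86 (SE 0.23), or 0.552 of the control level, had an adjusted p of 0.143. It was the lowest estimate among the 41 genes and stood at -0.78 with both replicate 3 arrays left out.

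Ifit1, a sensor of uncapped viral RNA, read 3.33, 3.46 and 5.02 on induced replicates 1 to 3 and 3.65, 3.91 and 3.95 on control replicates 1 to 3. Its induced replicates 1 and 2 were thus below every control array and its induced replicate 3 above them all, and the change was 0.10 (SE 0.44, adjusted p = 0.939). Isg20, an exonuclease, showed the same arrangement at smaller scale, at 7.25, 6.95 and 7.87 in induced cells against 7.50, 7.54 and 7.77 in control cells. Ifit3 was at 4.35 ± 0.34 in induced and 4.38 ± 0.05 in control cells (SD, n = 3). The oligoadenylate synthetase Oas1a differed little between any arrays, its 6 values lying between 5.80 and 6.07, and those of its relative Oasl lay between 4.97 and 5.22.

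Of the genes acting on virus particles and membranes, Mx2, a dynamin-like GTPase, read 5.17, 5.36 and 6.54 on induced replicates 1 to 3 and 5.05, 5.26 and 5.05 on control replicates 1 to 3 (change 0.57, SE 0.35, adjusted p = 0.457). Its relative Mx1 was at 4.39 ± 0.30 in induced and 4.26 ± 0.07 in control cells (SD, n = 3), with overlap. Rsad2, the gene of the antiviral enzyme viperin, was higher on all induced arrays, at 4.50, 4.24 and 4.11 against 3.85, 3.92 and 3.92 in control cells. It differed from most members in that induced replicate 3 was the lowest of its induced arrays. Its change was 0.39 (SE 0.13, adjusted p = 0.209), at a signal among the dimmest 25% of genes, where RMA compresses differences.

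The 3 GTPases induced by interferon gamma, which act on membranes around intracellular pathogens, formed the one role in which every member separated the groups. All 3 lay above control on every induced array, where 12% of all genes did so. This did not extend to Irgm, Gbp1, Gbp4, Gbp5 and Gbp7 among the other pathway genes. Their groups overlapped, with changes of 0.54, 0.04, -0.18, -0.20 and 0.06. Ifi47 read 8.45, 8.33 and 10.35 on induced replicates 1 to 3 and 7.69, 7.62 and 6.30 on control replicates 1 to 3. It had the largest change of the 41 genes, 1.84 (SE 0.62), or 3.57-fold, with an adjusted p of 0.211. Both replicate 3 arrays were the extremes of their groups, and without them the change was 0.73. Igtp read 6.80, 6.94 and 8.13 in induced cells and 6.53, 6.39 and 6.00 in control cells, a change of 0.98 (SE 0.36, adjusted p = 0.24) that was 0.41 without both replicate 3 arrays.

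Gbp2 had the smallest adjusted p of the 41 genes. It read 6.29, 6.38 and 6.50 on induced replicates 1 to 3 and 5.95, 5.88 and 5.80 on control replicates 1 to 3, so the groups were separate and each held a narrow range. The change was 0.51 (SE 0.11, adjusted p = 0.0991), or 1.43-fold, and 0.42 without both replicate 3 arrays. The promoters of these 3 genes differ, as shown above, in which of the motifs they hold.

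**Figure D5:**
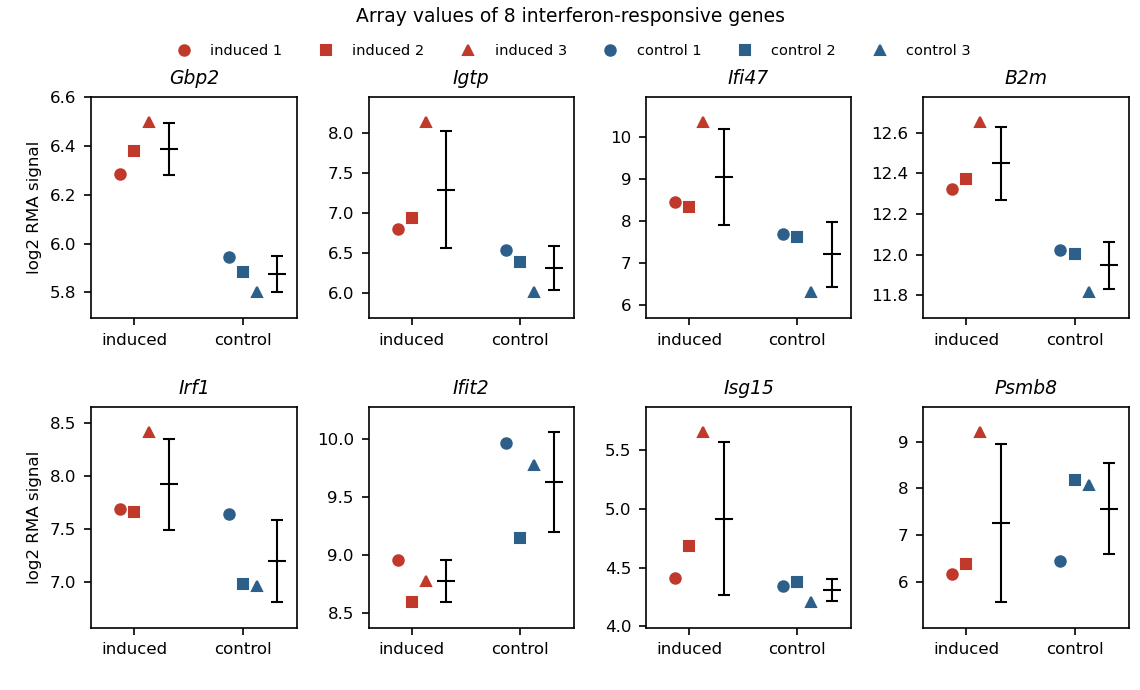
Log2 RMA signal of 8 interferon-responsive genes on each of 3 induced (red) and 3 control (blue) arrays, with the mean and SD of each group in black and a separate axis range in each panel. Gbp2, Igtp, Ifi47, B2m, Irf1 and Isg15 have all induced arrays above all control arrays, Ifit2 has all of them below, and Psmb8 overlaps, with induced replicate 3 at 9.21.

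Antigen presentation through class I molecules joins an altered proteasome, a peptide transporter and the B2m light chain. B2m read 12.32, 12.37 and 12.65 on induced replicates 1 to 3 and 12.02, 12.01 and 11.81 on control replicates 1 to 3. The groups were separate, and the change was 0.50 (SE 0.13, adjusted p = 0.143), or 1.41-fold. All 7 genes of this role were highest on induced replicate 3 among all 6 arrays. Of the other 6, Psmb10, a subunit of the immunoproteasome, read 7.88, 8.04 and 9.02 in induced cells and 8.14, 7.89 and 7.39 in control cells (change 0.51, SE 0.34, adjusted p = 0.496). Psmb9, another subunit, read 7.27, 7.07 and 7.77 in induced cells and 7.67, 6.85 and 6.46 in control cells, with a change of 0.38 (SE 0.34, adjusted p = 0.62).

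Psmb8, a further inducible proteasome subunit, had the widest spread of the 41 genes in both groups. It read 6.16, 6.38 and 9.21 on induced replicates 1 to 3 and 6.45, 8.17 and 8.08 on control replicates 1 to 3. Induced replicates 1 and 2 and control replicate 1 were thus at a low level and the other 3 arrays at a high one, and this did not follow the labelled groups. The change was -0.32 (SE 0.88, adjusted p = 0.897), and with single arrays left out it ran from -1.29 without induced replicate 3 to 0.23. The peptide transporter genes Tap1 and Tap2 were at 7.24 ± 0.35 and 7.39 ± 0.17 in induced cells and at 7.10 ± 0.01 and 7.15 ± 0.12 in control cells, and the loading factor Tapbp was at 8.81 ± 0.52 in induced and 8.62 ± 0.31 in control cells (SD, n = 3). The 3 control values of Tap1 spanned only 0.02.

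The remaining 5 induced genes all had positive estimates, and induced replicate 3 was the highest array for 4 of them, Xaf1 being the exception. Ifi35 read 6.44, 6.37 and 7.65 on induced replicates 1 to 3 and 6.21, 6.23 and 6.02 on control replicates 1 to 3 (change 0.67, SE 0.34, adjusted p = 0.37). Its groups were separate, and its induced replicates 1 and 2 lay far closer to control than induced replicate 3 did. Parp14, an ADP-ribosyltransferase, was at 7.89 ± 0.43 in induced and 7.48 ± 0.39 in control cells, and Ifi44 at 6.78 ± 0.29 and 6.58 ± 0.37 (SD, n = 3). Xaf1, a promoter of cell death, was at 5.89 ± 0.05 in induced and 5.67 ± 0.10 in control cells, with all induced arrays above. Ifi27 hardly differed, with means of 10.91 ± 0.27 in induced and 10.87 ± 0.26 in control cells.

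Members varied more among induced than among control arrays. The SD was larger in the induced group for 32 of 41 (78%), against 59% of all genes. The median SD of the members was 0.36 in induced and 0.18 in control cells, where all genes had medians of 0.18 and 0.15. Induced replicates 1 and 2 differed from each other by a median of 0.13 over the members and 0.14 over all genes. The widest ranges among induced arrays were those of Psmb8 (3.04), Ifi47 (2.02), Ifit1 (1.69), Irf7 (1.46), Mx2 (1.36) and Igtp (1.33). Among control arrays they were those of Psmb8 (1.73), Ifi47 (1.38) and Psmb9 (1.21). The narrowest among induced arrays were those of Oas1a at 0.08 and Xaf1 at 0.09.

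In a wider list of 91 other interferon pathway genes the estimates were split about evenly by sign. None passed the test (0 of 91), 19 had an unadjusted p under 0.05 (20.9%, against 17.6% of all genes), 47 had positive estimates (51.6%) and the median change was 0.02. The induced arrays lay wholly above control for 12 genes and wholly below for 12, or 13.2% each, close to the 12% above and 13.4% below over all genes. Induced replicate 3 was over 0.5 above the mean of the other induced arrays for 21 of them (23.1%, against 11.9% of all genes). It was over 0.5 below that mean for 12 (13.2%, against 12% of all genes). Their mean was 7.34, 7.31 and 7.39 on induced replicates 1 to 3 and 7.41, 7.39 and 7.23 on control replicates 1 to 3.

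Of 13 signalling genes 4 had positive estimates (median -0.12), led by Ptpn6, a phosphatase of cytokine receptors, at 0.72 (adjusted p = 0.19), with Jak2, the kinase bound to Ifngr2, the lowest at -0.83 (adjusted p = 0.235). Jak2 read 9.69, 9.96 and 8.79 in induced cells and 10.10, 10.41 and 10.43 in control cells, so all induced arrays were below and replicate 3 was lowest, as for Ifngr2. Of 16 genes that sense nucleic acids or encode interferons 11 had positive estimates (median 0.07). Tlr7, an endosomal RNA receptor, stood at 0.59 (adjusted p = 0.746), and with single arrays left out it ran from 0.0396 without induced replicate 1 (0.0689 without control replicate 3) to 1.35 without induced replicate 3. Sting1, the adaptor of DNA sensing, stood at -0.59 (adjusted p = 0.161). The interferon genes Ifnb1, Ifng, Ifna1 and Ifna4, singled out after their values were seen, had estimates of 0.01, 0.09, 0.08 and -0.20. Means in induced and control cells were 4.35 and 4.34 for Ifnb1, 4.61 and 4.53 for Ifng, and 3.58 and 3.50 for Ifna1. All of these lay below 4.973, the limit of the dimmest genes, where RMA compresses differences. The estimates of Ifnb1, Ifng and Ifna1 thus cannot decide whether these transcripts changed. Ifna4 lay above that limit, at 5.99 and 6.19.

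Of 42 further interferon-stimulated genes 24 had positive estimates (median 0.06). Cxcl9, a chemokine for T cells, stood highest at 0.91 (adjusted p = 0.214) and Ifitm1, a membrane protein that blocks virus entry, lowest at -1.35 (adjusted p = 0.234). Ifitm1 read 9.41, 8.97 and 7.52 on induced replicates 1 to 3 and 10.30, 10.10 and 9.52 on control replicates 1 to 3, every induced array lying below. With both replicate 3 arrays left out it fell by 1.02 (adjusted p = 0.0338, where 4.07% of all genes passed). Those arrays were the lowest of their groups for Ifitm1, so this adjusted p only describes that fit. Of 20 other antigen-presentation genes 8 had positive estimates (median -0.02). Psme2, a proteasome activator, stood at 0.57 (adjusted p = 0.166) with separate groups, at 10.23, 10.37 and 10.77 in induced cells against 10.02, 9.88 and 9.77 in control cells. RT1-CE10, a class I gene of the rat major histocompatibility complex, stood at -0.70 (adjusted p = 0.291), reading 5.33, 5.55 and 5.95 in induced cells and 5.70, 6.45 and 6.76 in control cells.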

How the data were processed

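The authors deposited log2 values made by RMA, per the submitters' processing notes, which name no version. The log2 scale was taken from their range, with array medians between 5.64 and 5.73. RMA gives no detection call, and the 6 arrays, rather than a depth, limit the precision. Features with 1 symbol in the platform annotation (18511 of 36685) were reduced to 18166 genes by taking the feature with the highest mean. A 2-group model without a block was fitted to all genes (limma 3.58.1, R 4.3.3, empirical Bayes, two-sided, 4 residual degrees of freedom), with Benjamini-Hochberg adjustment over all genes and a threshold of 0.05. No exact permutation test was run, since 3 arrays against 3 allow no p under 0.1. The fit was run on simulated data with independent noise for each gene. Such data hold no array that stands apart, so that run does not cover the case of induced replicate 3.

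The members, the gene lists and the motifs were chosen with earlier results of these data known. Every measured member is named. Those given in full are, in each role, the largest positive and negative change, and the widest ranges in each group, with further members added after their values were seen. Of the other pathway genes the extremes of each list are named. Alternatives were each array left out, a replicate block, array weights, an intensity trend, no dim genes, averaged features, median centring, both replicate 3 arrays left out, and a fit over all features.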

Additional observations from a re-analysis of the deposited data

How the results depend on the processing

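The 41 interferon-responsive genes gave 0 calls, median change 0.24 and 13 members with separate groups. With 1 array left out, calls stayed at 0, the median ran from 0.09 to 0.36 and separate members from 13 to 20 (31.7% to 48.8%, where 32.7% to 38.3% of all genes were separate), the highest without induced replicate 3. With both replicate 3 arrays left out there was 1 call (Ifi47), the median was -0.0361 and 24 members were separate (58.5%, against 46.3% of all genes). Array weights gave 1 call (Gbp2). Over all genes the 136 calls became 2 to 557 with 1 array left out, 12 with a replicate block, 929 with array weights, 740 without both replicate 3 arrays and 69 over all features. The replicate block, which leaves every estimate as it was, gave 0 member calls. The cause of these shifts was not tested. Deviations from the group means correlated weakly between same-numbered arrays, at 0.023, 0.12 and 0.154 for replicates 1 to 3. The value for replicate 3 was the highest of all pairs, and differently numbered arrays ran from -0.142 to 0.123. Whether same-numbered arrays share a source was not tested.

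Of 630 recomputed changes of 49 named genes 595 kept their direction and side of the threshold, 3 passed and 32 turned sign. With 1 array left out, changes ran from -0.44 to 0.40 for Ifit1, -1.29 to 0.23 for Psmb8, -0.045 to 0.68 for Irf7, -0.0676 to 0.36 for Ifih1, -0.0878 to 0.43 for Herc6, -0.11 to 0.15 for Ifi27, -0.0009 to 0.36 for Ifi44, -0.19 to 0.14 for Ifit3, -0.0613 to 0.27 for Tap1 and -0.12 to 0.36 for Tapbp. Array weights turned Ifih1 (-0.0092), Herc6 (-0.0834), Ifit1 (-0.35), Ifi27 (-0.0805), Tap1 (-0.0126) and Tapbp (-0.15). Without both replicate 3 arrays Stat2 (-0.10), Irf7 (-0.13), Ifih1 (-0.21), Dhx58 (-0.0361), Rig1 (-0.13), Herc6 (-0.0855), Ifit1 (-0.38), Ifi27 (-0.25), Ifi44 (-0.16), Parp14 (-0.0558), Psmb9 (-0.0943), Psmb10 (-0.0531), Tap1 (-0.0674) and Tapbp (-0.13) turned. The 6 members Isg15, Herc6, Ifit1, Ifit3, Mx1 and Rsad2 lay among the dimmest 25% of genes, where array signal limits what can be seen.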

Other observations

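A few other interferon pathway genes, singled out after their values were seen, had 1 or 2 arrays far from the rest in a way that did not follow the groups. Gbp7, a GTPase related to Gbp2, read 5.99, 6.04 and 7.62 on induced replicates 1 to 3 and 7.56, 6.06 and 5.85 on control replicates 1 to 3. Lgals9, which encodes galectin 9, read 7.63, 7.41 and 6.59 in induced cells and 7.64, 9.57 and 7.30 in control cells. Gbp5 read 5.18, 5.13 and 5.38 in induced cells and 5.20, 4.64 and 6.44 in control cells. Tlr7 read 7.16, 6.49 and 4.53 in induced cells and 5.92, 6.07 and 4.43 in control cells. It was low on both replicate 3 arrays, as the mean of the macrophage and leukocyte markers was, though not every marker.

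The 3 smallest adjusted p-values among the 91 other pathway genes belonged to genes that were also singled out after their values were seen. Mov10, an RNA helicase, read 6.49, 6.49 and 6.60 in induced cells and 7.19, 7.41 and 7.03 in control cells, a change of -0.68 (SE 0.13, adjusted p = 0.0815). Apol3l1 read 7.95, 7.95 and 8.11 in induced cells and 7.57, 7.37 and 7.42 in control cells, a change of 0.55 (SE 0.11, adjusted p = 0.0919). Znfx1, a zinc-finger helicase of mitochondria that senses RNA, read 6.81, 6.53 and 6.84 in induced cells and 6.04, 6.29 and 5.89 in control cells, a change of 0.65 (SE 0.15, adjusted p = 0.112). None of them passed over all genes.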
